A study of Mus musculus with 2 samples.

Results

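The 10 inhibitory receptor genes of T and NK cells described here were Pdcd1, Ctla4, Lag3, Havcr2, Tigit, Cd160, Cd244a, Btla, Entpd1 and Klrc1, taken by symbol from the 32285 genes of the count tables. Their unique molecular identifiers (UMIs, each standing for 1 captured transcript) were summed over the cells of 6 classes in each of 2 single-cell RNA sequencing libraries. The libraries came from ovarian tumors at the abraded peritoneal wall of female C57BL/6 mice aged 6 to 8 weeks, all of which carried syngeneic SO cancer cells (p53-/-, Myc, Hras). One library was from mice given control IgG and the other from mice given the Activin A neutralizing antibody. The labels give 7 and 8 mice and 10 days of daily injections, the study's methods give other numbers for its sequenced mice, and this was not settled. Tissue was pooled over the mice of a group, so each group was 1 library, no test between groups was possible, and the antibody cannot be told apart from any other difference between the libraries. All intervals below are 95% intervals that cover counting error only, and they are too narrow where a gene's UMIs lie in few cells.

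Inhibitory receptors lower the response of a lymphocyte when they meet their ligands on other cells. PD-1 (Pdcd1), CTLA-4 (Ctla4), LAG-3 (Lag3), TIM-3 (Havcr2) and TIGIT (Tigit) are induced by stimulation of T cells and stay high on T cells exposed to antigen for a long time, as in tumors. BTLA (Btla) is also known from B cells, CD39 (Entpd1) is an enzyme that degrades extracellular ATP, and NKG2A (Klrc1), CD160 (Cd160) and 2B4 (Cd244a) are shared by NK cells and subsets of T cells. Activin A, the protein that the antibody binds, is a member of the TGFβ family and signals through SMAD proteins.

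The filter on cells left 8770 control IgG cells (median 5719 UMIs) and 6386 antibody cells (median 4660 UMIs). The 6 classes held 4403 and 3567 of them. In that order of libraries there were 2104 and 1863 CD8 cells, 676 and 551 CD4 cells, 33 and 18 Foxp3-gated regulatory cells, 1214 and 803 dividing T cells (Mki67 or Top2a, of any lineage), 138 and 96 gamma delta T cells (Trdc) and 238 and 236 NK cells. The regulatory class is small enough that single cells decide its values. The summed T markers were between 2978 and 5578 CPM (UMIs of a gene per 1000000 UMIs of the class) in the T classes and 689 and 605 CPM in NK cells, and the NK markers were 8998 and 8786 CPM in NK cells. Summed macrophage markers were between 11.5 and 69.5 CPM in all 6 classes, and they were lower with the antibody in each. One antibody library regulatory cell carried many UMIs of the myeloid gene Lyz2, and values without such cells are given where they matter. The libraries shared 19 cell barcodes. In CD8 cells the median mitochondrial share was 3.33% with control IgG and 2.49% with the antibody.

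**Figure D1:**
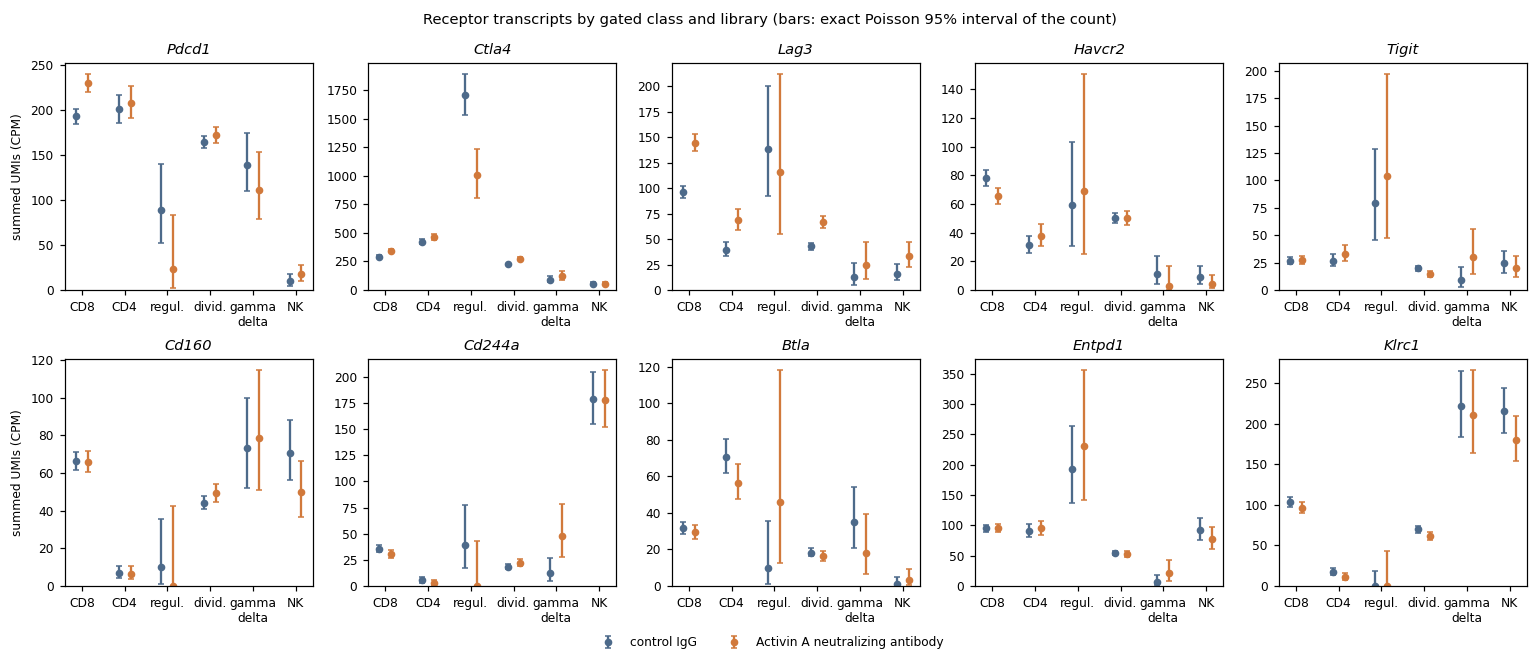
Level of each receptor gene (CPM, y axis from 0, scales differ between panels) in the 6 gated classes (x axis), with control IgG in blue and the Activin A neutralizing antibody in orange, and bars for the exact Poisson 95% interval of the count. Ctla4 is highest in regulatory cells (1704 and 1004 CPM), Cd244a in NK cells (179 and 178 CPM), and the antibody point of Lag3 lies above the control point in every class but the regulatory one.

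Pdcd1, which encodes PD-1, lay on chromosome 1 (94038305 to 94052553, GRCm38). Its level was 193 CPM with control IgG and 230 CPM with the antibody in CD8 cells, 201 and 208 CPM in CD4 cells, and 164 and 173 CPM in dividing cells. In gamma delta cells it was 139 and 112 CPM, and in NK cells 9.87 and 17.7 CPM. The gene was thus a T cell transcript here, and CD8 and CD4 cells overlapped in level. In CD8 cells the level was higher with the antibody, with a log2 ratio of 0.25 (interval 0.16 to 0.34) from 2060 and 1939 UMIs. In CD4 cells the interval of the log2 ratio, -0.11 to 0.22, included 0. The regulatory cells had 18 UMIs (88.9 CPM) with control IgG but only 2 UMIs (23.1 CPM) in the other library, and this log2 ratio of -1.95 had an interval that also included 0 (-5.10 to 0.12). The 2 values in NK cells lay below the level in free RNA, measured in barcodes with under 100 UMIs (48.9 and 65.7 CPM). Free RNA is only a part of the UMIs of a cell, however. Tracer genes of other cell types put the Pdcd1 expected from it in NK cells at 1.45 and 5.96 CPM. This is not an upper limit, because the tracers include Col1a1 and Col3a1, which the T and NK gates cap.

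Ctla4 encodes a receptor that competes with CD28 for the ligands CD80 and CD86, and regulatory T cells are known to carry it at a high level. It lay on chromosome 1 from 60887000 to 60915832. In regulatory cells the level was 1704 CPM with control IgG (interval 1529 to 1894, from 345 UMIs) and 1004 CPM with the antibody (804 to 1239, from 87 UMIs). No other class came near these levels. CD4 cells had 423 and 465 CPM, CD8 cells 293 and 345 CPM, dividing cells 224 and 275 CPM, gamma delta cells 91.5 and 121 CPM and NK cells 55.6 and 54.2 CPM, and in that order the ranges over the 2 libraries did not overlap between neighbouring classes. With the antibody, Ctla4 was higher in CD8 cells (log2 ratio 0.23, 0.16 to 0.31), in CD4 cells (0.13, 0.02 to 0.25) and in dividing cells (0.29, 0.22 to 0.37), and lower in regulatory cells (-0.76, -1.12 to -0.42). In the regulatory class, 1 control IgG cell held 76 of the 345 UMIs. The share of regulatory cells with a Ctla4 UMI, at full depth, was 93.9% in the control IgG library (31 of 33 cells, 79.8% to 99.3%). It was 83.3% in the antibody library (15 of 18 cells, 58.6% to 96.4%), and the intervals overlapped. In free RNA Ctla4 was 85.7 CPM with control IgG and 137 CPM with the antibody, and subtraction of the free RNA expected from tracer genes gave 0.24 in CD8 cells, 0.13 in CD4 cells and 0.23 in dividing cells. In regulatory cells the subtraction gave -0.93, but there the tracers came mainly from the antibody library cell with Lyz2, and without such cells the log2 ratio, not subtracted, was -0.65.

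Lag3 encodes a receptor that binds MHC class II, and it lay on chromosome 6 from 124904361 to 124911705. CD8 cells had 96.1 CPM with control IgG (interval 90.3 to 102, from 1026 UMIs) and 145 CPM with the antibody (137 to 153, from 1220 UMIs). CD4 cells had 39.8 and 68.5 CPM, and dividing cells 42.9 and 66.7 CPM. NK cells had 16.1 CPM from 18 UMIs and 33.3 CPM from 32 UMIs. In these 4 classes the antibody library was higher, and the counting intervals of the log2 ratios lay above 0. The log2 ratio was 0.59 in CD8 cells (0.47 to 0.71), 0.78 in CD4 cells (0.45 to 1.12), 0.64 in dividing cells (0.47 to 0.80) and 1.05 in NK cells (0.17 to 1.97), the last from 16 and 22 cells with a UMI. NK cells gated on 1 marker UMI instead of 2, and with no Cd3 UMI allowed instead of at most 1, gave only 0.14. Which of these changes lowered the ratio was not tested. The NK levels lay below those in free RNA (20.4 and 36.4 CPM). Tracer genes put the Lag3 expected from free RNA in NK cells at 0.606 and 3.30 CPM, which is again not an upper limit. Gamma delta cells had 7 and 8 UMIs (12.8 and 24.1 CPM, log2 ratio interval -0.75 to 2.61). Regulatory cells had 138 CPM from 28 UMIs and 115 CPM from 10 UMIs, with an interval of -1.47 to 0.82. They and the CD8 cells had the highest levels and overlapped each other.

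A Lag3 UMI was also found in a larger share of CD8 and dividing cells of the antibody library. After every cell was thinned to 2000 UMIs by 1 random draw, a Lag3 UMI was found in 15.3% of CD8 cells with control IgG (316 of 2065 cells, exact interval 13.8% to 16.9%) and in 20.6% with the antibody (374 of 1816 cells, 18.8% to 22.5%), leaving out 39 and 47 shallower cells. Before thinning, at median depths of 4434 and 4010 UMIs, the shares were 29.0% and 36.6%. In dividing cells the thinned shares were 8.00% and 14.6%. Fibroblast-gated cells, taken as a class that should lack the gene, had thinned shares of 1.12% (2 of 178 cells) and 1.90% (4 of 210 cells), with median depths of 13398 and 8719 UMIs before thinning. Those in CD8 cells thus lay well above background. Summed over cells, Lag3 was 6.63 and 18.1 CPM in fibroblast-gated cells, 24.9 and 38.2 CPM in dendritic-gated cells and 3.005 and 13.9 CPM (3 and 8 UMIs) in B-gated cells. The fibroblast and B values lay below those in free RNA, but in B-gated cells tracer genes put the Lag3 expected from free RNA at 3.85 and 0.754 CPM at most. In fibroblast-gated cells the tracers, which include collagen genes, could not measure it. In cancer-gated cells Lag3 was 1.73 and 1.95 CPM, in other myeloid cells 1.76 and 1.16 CPM (5 and 2 UMIs), in macrophage-gated cells 1.30 and 3.08 CPM (12 and 6 UMIs) and in mesothelial-gated cells 2.78 and 1.87 CPM (5 and 4 UMIs). The level was thus low in most classes outside T and NK cells, but in dendritic-gated cells it was above that of NK cells. It was higher with the antibody in dendritic-, fibroblast-, cancer-, B- and macrophage-gated cells, the last 2 from few UMIs. Among these, the intervals of the 2 levels lay apart only in fibroblast-gated cells (3.99 to 10.3 and 13.3 to 24.1 CPM). In cancer-gated cells they largely overlapped (1.11 to 2.57 and 1.35 to 2.73 CPM). Both cancer values lay below the Lag3 expected there from free RNA at most (5.27 and 9.81 CPM). Lag3 was lower only in other myeloid and mesothelial-gated cells, from at most 5 UMIs in each library. A higher level with the antibody was thus not particular to T and NK cells, and Lag3 was also higher in free RNA (20.4 and 36.4 CPM). Subtraction of the free RNA expected from tracer genes left the log2 ratio of Lag3 in CD8 cells at 0.59. The gate of CD8 cells caps the collagen tracers, so this may subtract too little. The summed level of 10 stress and dissociation genes, which respond to handling and to stimulation, was also higher with the antibody, at 1559 and 1904 CPM in CD8 cells, and its part in the levels of Lag3 and the other receptors was not tested.

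**Figure D2:**
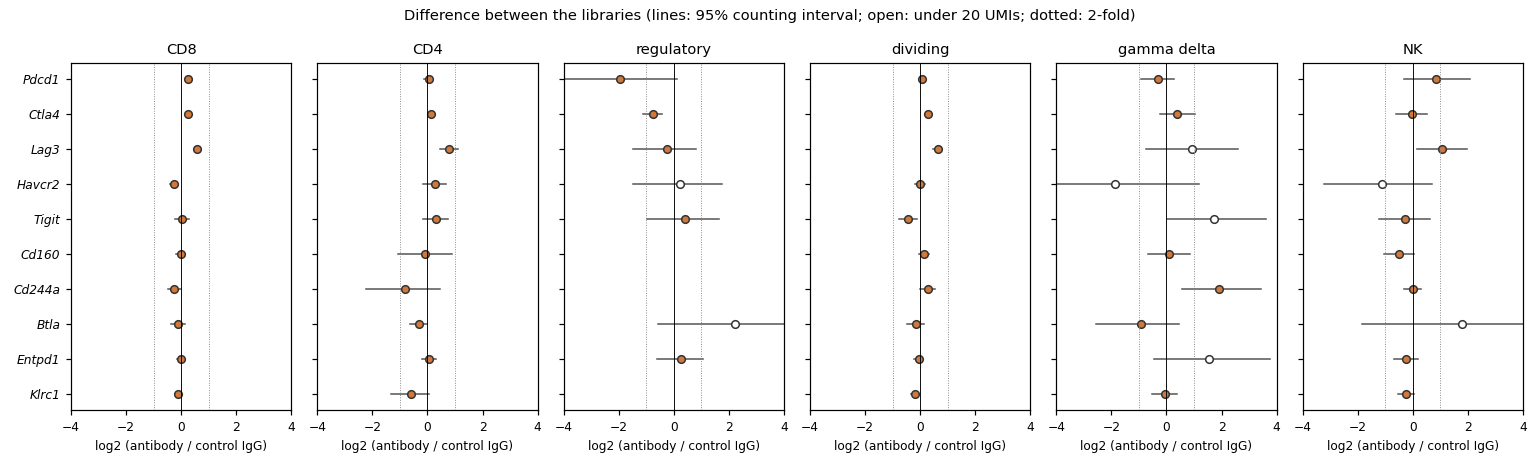
Log2 ratio of the antibody over the control IgG library (x axis) for each receptor gene (y axis) in each class, with lines for the 95% counting interval (lines that run past 4 in either direction are clipped), dotted lines at 2-fold, filled points for genes with at least 20 UMIs over both libraries and open points for those below; genes with no UMI in a library have no point. Lag3 lies right of 0 in all classes but the regulatory one, and intervals are widest in the regulatory, gamma delta and NK classes.

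Havcr2 encodes TIM-3, which marks late stages of T cell dysfunction and is also known from myeloid cells, and it lay on chromosome 11 from 46454935 to 46481255. CD8 cells had 78.0 CPM with control IgG (interval 72.7 to 83.4, from 832 UMIs) and 65.3 CPM with the antibody (60.0 to 71.0, from 551 UMIs). The direction was opposite to that of Pdcd1, Ctla4 and Lag3 in the same cells, with a log2 ratio of -0.26 (-0.41 to -0.10). With each cell weighted equally it was -0.10. The share of CD8 cells with a Havcr2 UMI after thinning was 10.1% with control IgG (8.85% to 11.5%) and 9.64% with the antibody (8.32% to 11.1%), so the intervals overlapped, and 1 control IgG cell held 17 UMIs. Dividing cells had 50.2 and 50.1 CPM (log2 ratio -0.18 to 0.17), and CD4 cells 31.3 and 37.5 CPM (-0.15 to 0.67). Gamma delta and NK cells had between 1 and 10 UMIs in each library, and regulatory cells had 59.3 and 69.3 CPM from 12 and 6 UMIs. Outside the 6 classes Havcr2 was 62.9 and 47.1 CPM in other myeloid cells, 37.8 and 41.3 CPM in dendritic-gated cells and 30.4 and 33.4 CPM in macrophage-gated cells.

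Tigit, on chromosome 16 (43648867 to 43664146), encodes a receptor for the poliovirus receptor Pvr and for Nectin2. It was highest in regulatory cells, with 79.0 CPM from 16 UMIs and 104 CPM from 9 UMIs. CD4 cells (26.8 and 32.9 CPM), CD8 cells (26.5 and 27.0 CPM) and NK cells (24.2 and 19.8 CPM) were close to each other. Dividing cells had 19.9 CPM with control IgG and 14.7 CPM with the antibody, a log2 ratio of -0.44 (-0.75 to -0.13), and this was the class with a Tigit interval below 0. The interval in CD8 cells was -0.23 to 0.28, and that in regulatory cells was -0.97 to 1.66. Gamma delta cells had 5 and 10 UMIs (9.15 and 30.1 CPM), under the minimum of 20 UMIs set for a comparison.

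Klrc1 encodes NKG2A, which pairs with CD94 (Klrd1) and binds Qa-1 (H2-T23). It lay on chromosome 6 from 129666015 to 129678973, and its close paralogs Klrc2 and Klrc3 can share sequence with it, so that its counts carry some uncertainty. Gamma delta cells had 221 CPM with control IgG and 211 CPM with the antibody, and NK cells 215 and 180 CPM. CD8 cells had 104 and 96.7 CPM, dividing cells 69.6 and 61.3 CPM, and CD4 cells 17.2 and 11.2 CPM. No Klrc1 UMI was found in regulatory cells, where a floor of 3 counts would be 14.8 CPM with control IgG and 34.6 CPM with the antibody. The log2 ratio was below 0 in all 5 classes with UMIs, from -0.61 in CD4 cells to -0.07 in gamma delta cells, and its interval excluded 0 in dividing cells (-0.18, -0.34 to -0.03) but not in NK cells (-0.26, -0.55 to 0.03). Klrd1 was 1165 CPM with control IgG and 880 CPM with the antibody in NK cells (log2 ratio -0.40, -0.53 to -0.28), and 619 and 508 CPM in CD8 cells (-0.28, -0.34 to -0.23). Klrc2 was 63.2 and 51.7 CPM in CD8 cells (-0.29, -0.47 to -0.11) and 296 and 309 CPM in NK cells (-0.17 to 0.29).

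Cd244a encodes the SLAM family receptor 2B4 for CD48 and lay on chromosome 1 from 171559193 to 171609746, where Ly9 overlaps it on the opposite strand. Its level in NK cells was 179 CPM from 199 UMIs with control IgG and 178 CPM from 171 UMIs with the antibody (log2 ratio -0.31 to 0.30). All other classes were lower. CD8 cells had 35.8 and 30.2 CPM (-0.24, -0.48 to -0.01), dividing cells 18.5 and 22.3 CPM (0.27, -0.01 to 0.54), and CD4 cells 18 and 8 UMIs. In gamma delta cells 7 UMIs in 7 of 138 cells (12.8 CPM) stood beside 16 UMIs in 10 of 96 cells (48.2 CPM), a log2 ratio of 1.91 (0.55 to 3.44). The summed NK markers of gamma delta cells also differed, at 560 CPM with control IgG and 1139 CPM with the antibody. The part of a different mix of cells in this ratio was not tested. With the 5% of cells with most UMIs left out of each class, no receptor that still had at least 20 UMIs passed 2-fold in gamma delta cells. Cd244a was also found at 95.7 and 70.1 CPM in dendritic-gated cells, 82.6 and 92.4 CPM in other myeloid cells, 48.2 and 48.8 CPM in macrophage-gated cells, and 11.5 and 12.6 CPM in cancer-gated cells.

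Cd160, on chromosome 3 (96798763 to 96829351), encodes a receptor of cytotoxic cells that binds HVEM (Tnfrsf14). It was 73.2 and 78.4 CPM in gamma delta cells, 66.2 and 65.9 CPM in CD8 cells, 70.9 CPM (79 UMIs) and 50 CPM (48 UMIs) in NK cells and 44.2 and 49.3 CPM in dividing cells. CD4 cells had 6.93 and 6.58 CPM, a lower summed level than in each of those classes. The interval of its log2 ratio included 0 in each of the 5 classes with at least 20 UMIs, among them -0.17 to 0.15 in CD8 cells and -1.05 to 0.03 in NK cells. Btla, which also binds HVEM, lay on chromosome 16 from 45224315 to 45257670. It was 70.5 CPM with control IgG and 56.5 CPM with the antibody in CD4 cells (log2 ratio -0.32, -0.63 to -0.01), 31.7 and 29.3 CPM in CD8 cells, and 1 and 3 UMIs in NK cells. B-gated cells had 465 and 471 CPM, and dendritic-gated cells 112 and 137 CPM. Among the 6 classes Btla was thus highest in CD4 cells, and it was higher still in dendritic-gated and B-gated cells.

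Entpd1, on chromosome 19 (40612366 to 40741602), encodes CD39, the first enzyme on the path from extracellular ATP to adenosine, a path that Nt5e completes. Regulatory cells had 193 CPM from 39 UMIs and 231 CPM from 20 UMIs. CD8 cells had 1014 UMIs with control IgG and 801 with the antibody, about 95 CPM in both, CD4 cells 91.0 and 95.2 CPM, NK cells 92.4 and 78.1 CPM and dividing cells 54.5 and 52.3 CPM. The interval of the log2 ratio included 0 in all 5 classes, and it was -0.14 to 0.13 in CD8 cells, -0.18 to 0.31 in CD4 cells and -0.69 to 0.20 in NK cells. Macrophage-gated cells had 189 and 152 CPM.

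The differences of the receptors were set beside those of all genes, and at 2-fold the counts are too few to be read as a result about the receptors. Of genes with at least 20 UMIs over both libraries of a class, the share that differed by at least 2-fold in either direction was 3.98% in CD8 cells, 3.47% in CD4 cells, 14.5% in regulatory cells, 3.91% in dividing cells, 6.27% in gamma delta cells and 4.3% in NK cells. None of the 10 receptors passed 2-fold in CD8, CD4 or dividing cells, where all 10 could be compared. One of 5 passed in regulatory cells (Pdcd1, lower), 1 of 6 in gamma delta cells (Cd244a, higher) and 1 of 8 in NK cells (Lag3, higher), each from at most 50 UMIs in all. At 1.5-fold the shares of all genes were 11.8% in CD8 cells, 13.1% in CD4 cells, 39% in regulatory cells, 10.9% in dividing cells, 22.9% in gamma delta cells and 16.9% in NK cells. The receptors past 1.5-fold were Lag3 in CD8 and in dividing cells (1 of 10 each), Lag3, Cd244a and Klrc1 in CD4 cells (3 of 10, the last 2 lower), Pdcd1 and Ctla4 in regulatory cells (2 of 5, both lower), Cd244a and Btla in gamma delta cells (2 of 6) and Pdcd1 and Lag3 in NK cells (2 of 8). The share of receptors was near that of all genes in CD8, dividing and regulatory cells, and with so few receptors no more is read from the others. The median log2 ratio of the receptors was -0.00 in CD8 cells beside 0.03 over all genes, 0.06 beside 0.01 in CD4 cells, -0.26 beside 0.07 in regulatory cells, 0.03 beside 0.04 in dividing cells, 0.01 beside 0.03 in gamma delta cells and -0.14 beside 0.03 in NK cells. Lag3 stood at percentile 94.3 of all genes in CD8 cells, 96.9 in CD4 cells, 95.1 in dividing cells and 98.1 in NK cells.

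CD8 cells were split, after the values of the whole class had been seen, by UMIs of Gzma, Gzmb and Prf1 (at least 2 in all) and of Tcf7 or Lef1, genes of naive and stem-like T cells. Cytotoxic cells without Tcf7 or Lef1 were 467 with control IgG and 519 with the antibody (22.2% and 27.9% of CD8 cells). Cells with Tcf7 or Lef1 but under 2 of the cytotoxic UMIs were 820 and 621 (39.0% and 33.3%). Cells with both were 622 and 483 (29.6% and 25.9%). Cells with neither, which had under 2 cytotoxic UMIs and no Tcf7 or Lef1, were 195 and 240 (9.27% and 12.9%). The split used UMIs before thinning, and CD8 cells of the antibody library were shallower (median 4010 against 4434 UMIs). Whether a cell reaches these limits depends on depth, and the part of depth in these shares was not tested. Havcr2 was higher in cytotoxic cells than in Tcf7 or Lef1 cells in both libraries, at 151 and 101 CPM against 17.8 and 24.4 CPM. Entpd1 was 158 and 151 CPM against 33.2 and 33.8 CPM, and Cd244a 59.8 and 43.9 CPM against 9.74 and 9.90 CPM. Btla went the other way, with 18.9 and 19.6 CPM against 49.3 and 42.9 CPM.

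The libraries were then set side by side within each subset of CD8 cells. Havcr2 was lower with the antibody in cytotoxic cells, with a log2 ratio of -0.58 (-0.81 to -0.35) from 392 and 254 UMIs, and in cells with both (-0.28, -0.54 to -0.02). Its interval included 0 in Tcf7 or Lef1 cells (-0.08 to 0.99) and in cells with neither (-0.66 to 0.59). Gzmb, which was used for the split, was also lower in the cytotoxic cells of the antibody library, at 2336 and 1678 CPM. Lag3 was higher in cytotoxic cells (162 and 214 CPM, log2 ratio 0.40, 0.21 to 0.59), in Tcf7 or Lef1 cells (37.3 and 61.9 CPM, 0.73, 0.38 to 1.08) and in cells with both (374 and 405 UMIs, 0.63, 0.42 to 0.84), while in cells with neither its interval included 0 (0.28, -0.11 to 0.67). Pdcd1 was 245 and 241 CPM in cytotoxic cells (-0.18 to 0.14), but 137 and 173 CPM in Tcf7 or Lef1 cells (0.34, 0.15 to 0.53). It was 199 and 254 CPM in cells with both (0.35, 0.20 to 0.50) and 239 and 279 CPM in cells with neither (0.22, -0.05 to 0.50). Ctla4 was 186 and 258 CPM in Tcf7 or Lef1 cells (0.47, 0.31 to 0.63) and 374 and 407 CPM in cytotoxic cells, where the interval of -0.00 to 0.25 reached 0. In cells with both its log2 ratio was 0.06 (-0.06 to 0.19), and in cells with neither it was 0.40 (0.16 to 0.65). Whether these ratios differ between subsets was not tested.

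**Figure D3:**
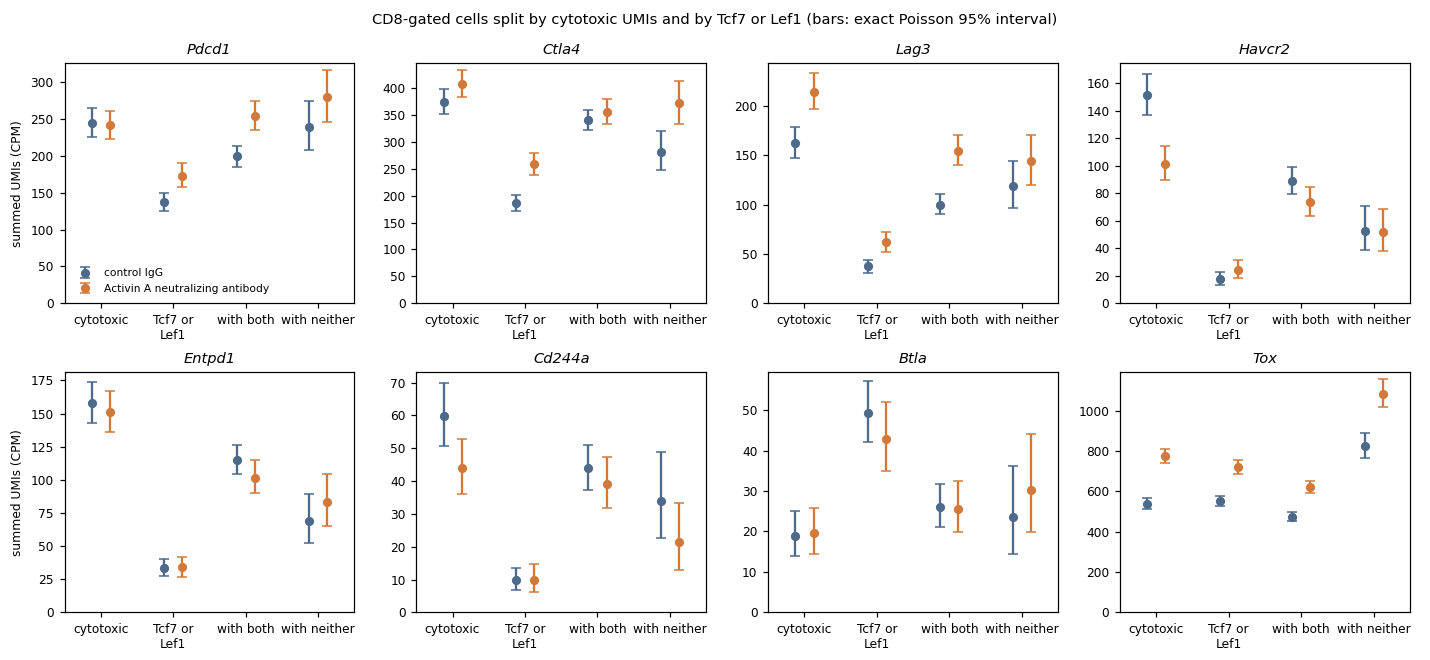
Level (CPM, y axis from 0) of 7 receptor genes and Tox in CD8-gated cells split into cytotoxic cells, Tcf7 or Lef1 cells, cells with both and cells with neither (x axis), with control IgG in blue, the antibody in orange and bars for the exact Poisson 95% interval. Havcr2 in cytotoxic cells is 151 CPM with control IgG and 101 CPM with the antibody, while Lag3 and Tox are higher with the antibody in each subset.

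Cells were also counted by the number of receptors found in them. The share expected if each gene were detected independently of the others was not calculated, so the shares with at least 3 receptors are not read as co-expression. After thinning to 2000 UMIs, at least 3 of the 10 genes had a UMI in 18.4% of CD8 cells with control IgG (379 of 2065 cells, 16.7% to 20.1%) and in 21.8% with the antibody (395 of 1816 cells, 19.9% to 23.7%). In dividing cells the shares were 10.2% (8.57% to 12.1%) and 13.7% (11.4% to 16.3%), and in CD4 cells 11.2% and 11.8%. Regulatory cells had 25.8% (8 of 31 cells) and 16.7% (3 of 18 cells), with wide intervals of 11.9% to 44.6% and 3.58% to 41.4%. NK cells had 7.83% and 5.02%, and gamma delta cells 0.746% (1 of 134 cells) and 4.44% (4 of 90 cells). None of the fibroblast-gated or cancer-gated cells had 3 receptors after thinning, with an upper limit of 2.05% in the smallest of these groups by library. Without thinning the shares in CD8 cells were 47.2% and 49.9%. The shares that follow are again after thinning to 2000 UMIs. CD8 cells with a Lag3 UMI had a Havcr2 UMI in 17.7% (control IgG) and 15.2% (antibody) of cells, against 8.75% and 8.18% of those without Lag3. Those with a Tcf7 UMI had Havcr2 in 1.97% and 2.04%, against 12.8% and 11.7% of those without. Those with a Gzmb UMI had Lag3 in 22.9% and 27.3%, against 9.98% and 14.9%.

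**Figure D4:**
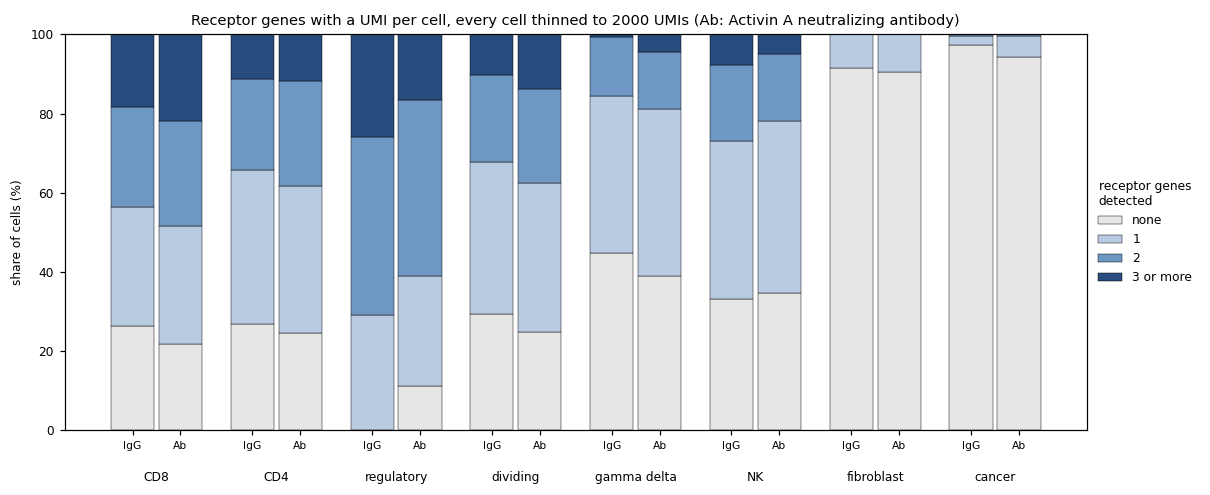
Share of cells (%, y axis from 0 to 100) with a UMI of none, 1, 2 or at least 3 of the 10 receptor genes in each gated class and library (x axis), after every cell was thinned to 2000 UMIs. Cells with at least 3 make up 18.4% and 21.8% of CD8 cells and none of the fibroblast-gated or cancer-gated cells.

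Most UMIs of 7 receptors were in the T and NK classes in both libraries. The 6 classes held 85.1% of the Pdcd1 UMIs of all kept cells with control IgG and 86.0% with the antibody, 81.1% and 83.8% of those of Ctla4, 80.6% and 83.7% of Lag3, 79.6% and 82.9% of Tigit, 80.2% and 83.7% of Cd160, 79.5% and 78.7% of Klrc1, and 64.8% and 74.3% of Havcr2. Larger shares of Entpd1, Btla and Cd244a lay in other cells. Macrophage-gated cells held 32.1% of Entpd1 with control IgG and 10.9% with the antibody, and those cells were 13.3% and 4.78% of kept cells. B-gated cells held 22.7% and 21.2% of Btla, and dendritic-gated cells 12.3% and 17.1%. Of Cd244a, macrophage-gated cells held 18.4% and 5.91%. The 6 classes held 41.3% and 58.6% of Entpd1, 41.9% and 42.5% of Btla and 36.2% and 39.8% of Cd244a.

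**Figure D5:**
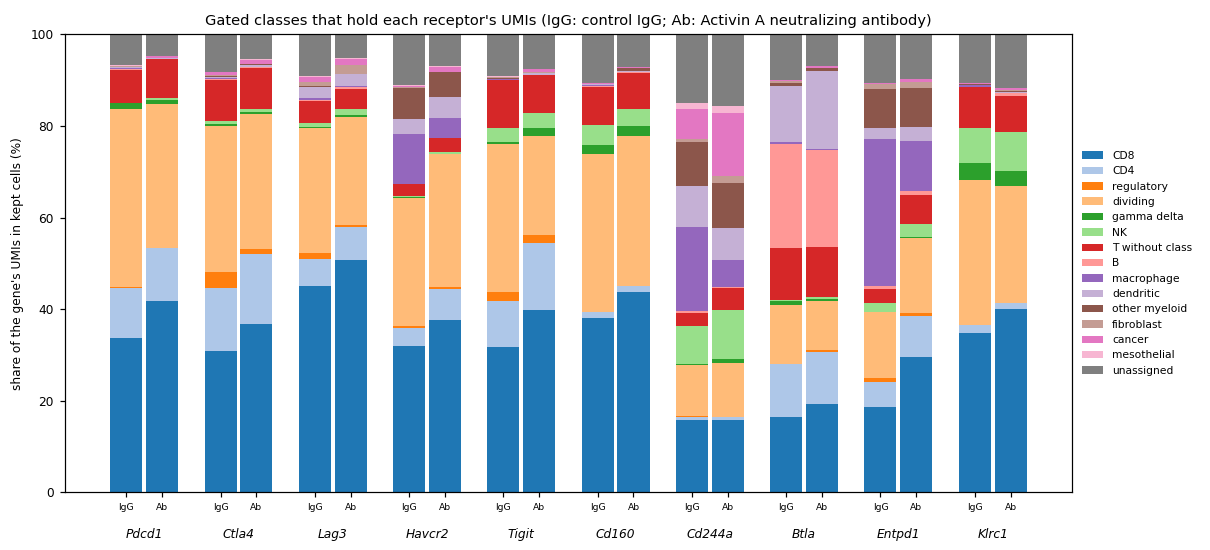
Share of each receptor gene's UMIs in kept cells (%, y axis from 0 to 100) that fell in each gated class (colours), with control IgG and the antibody as neighbouring bars for each gene (x axis). The 6 T and NK classes fill most of the bars of Pdcd1, Ctla4, Lag3, Tigit, Cd160 and Klrc1, while macrophages hold 32.1% of Entpd1 with control IgG and B cells 22.7% of Btla.

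Genes that act around the receptors were described from lists. Of 16 regulators of T cell differentiation and exhaustion, all could be compared in CD8 cells, 3 (Tox2, Nr4a1 and Nr4a3) were at least 1.5-fold higher with the antibody and none was that much lower, beside 11.8% of all genes past 1.5-fold in either direction. The median log2 ratio of the list was 0.33 in CD8 cells, beside 0.03 over all genes. It was 0.13 in CD4, 0.06 in regulatory, 0.30 in dividing, 0.23 in gamma delta and 0.34 in NK cells. In other cells, where the median over all genes was not calculated, between 9 and 14 of the 16 genes could be compared. There the median of the list was 0.35 in macrophage-gated, 0.50 in B-gated, 0.49 in fibroblast-gated and 0.33 in dendritic-gated cells, but -0.20 in other myeloid and -0.16 in cancer-gated cells. A median above 0 was thus not particular to T cells, and it was not found in every class. Tox, a factor that sustains exhausted T cells, was 543 and 744 CPM (log2 ratio 0.45, 0.40 to 0.51) and was higher in each of the 4 CD8 subsets, by 0.38 to 0.53. Nr4a1, induced by signals of the T cell receptor, was 52.5 and 80.0 CPM (0.61, 0.44 to 0.77), Tcf7 was 152 and 143 CPM (-0.19 to 0.02), and Slamf6 was 108 and 87.0 CPM (-0.31, -0.45 to -0.18). In dividing cells Nr4a1 was 46.6 and 96.9 CPM and Nr4a3 30.1 and 60.2 CPM. Of the 10 stress and dissociation genes, 3 were at least 1.5-fold higher with the antibody in CD8 cells, 2 in CD4 cells, 5 in dividing cells and 3 in NK cells, and none was that much lower in these classes. In that order of classes, 11.8%, 13.1%, 10.9% and 16.9% of all genes passed 1.5-fold in either direction. In macrophage-gated cells 9 and in fibroblast-gated cells 8 of the 10 were that much higher, with a median log2 ratio of 0.87 in both. The share of all genes past 1.5-fold was not calculated for macrophage-gated and fibroblast-gated cells. The median was 0.30 in CD8 cells, 0.31 in CD4 cells, 0.50 in dividing cells and 0.35 in NK cells. In CD8 cells Fosb was 35.5 and 63.8 CPM, Egr1 82.3 and 133 CPM and Hspa1b 128 and 201 CPM, while Jun was 143 and 107 CPM.

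Of 12 related receptors, 2 were at least 1.5-fold lower in CD8 cells and none was that much higher, beside 11.8% of all genes in either direction. Klrg1, a receptor of terminal effector cells, was 20.4 CPM with control IgG and 11.4 CPM with the antibody (log2 ratio -0.84, -1.21 to -0.49). Pvrig, the other, had 27 and 14 UMIs. Cd28, the activating counterpart of Ctla4, was 238 and 322 CPM (0.43, 0.35 to 0.51), and Cd226, that of Tigit, was 547 and 517 CPM (-0.08, -0.14 to -0.02). Of the 10 partners and adaptors, none of the 8 that could be compared in CD8 cells passed 1.5-fold, beside 11.8% of all genes. Inpp5d was 196 and 250 CPM (0.35, 0.26 to 0.44), and the phosphatase genes Ptpn6 and Ptpn11 were 56.2 and 61.0 CPM and 48.5 and 55.6 CPM.

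Of 15 ligand genes, 12 had at least 20 UMIs in CD8 cells, 13 in macrophage-gated and 11 in dendritic-gated cells. In CD8 cells 1 was at least 1.5-fold lower and none that much higher, beside 11.8% of all genes in either direction. In macrophage-gated cells 1 and in dendritic-gated cells 2 were that much higher and none lower. In fibroblast-gated cells 3 of 10 were that much lower and none higher. The share of all genes was not calculated for these other cells. Cd274, which encodes PD-L1, was 317 and 352 CPM in macrophage-gated cells, 367 and 356 CPM in dendritic-gated cells and 82.4 and 89.7 CPM in CD8 cells. Cd86 was 228 and 275 CPM in macrophage-gated and 332 CPM in dendritic-gated cells of both libraries. Nectin2 was 68.7 CPM with control IgG and 38.2 CPM with the antibody in fibroblast-gated cells and 45.7 and 33.1 CPM in cancer-gated cells, and Fgl1, a ligand of LAG-3, had no UMI in CD8, dendritic-gated or macrophage-gated cells.

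By Pearson correlation of log2(CPM + 1) over the 12 class and library values, among 9884 genes with a mean of at least 5 CPM, the gene most like Klrc1 was Klrc2 (r = 0.98), that most like Ctla4 was Dusp4 (0.98), that most like Cd160 was Crtam (0.98) and that most like Cd244a was Prf1 (0.96). For Lag3 it was Arhgap27os3 (0.95), for Pdcd1 Carmil2 (0.94), for Havcr2 Sugt1 (0.96), for Tigit Bag3 (0.95), for Btla Cdon (0.95) and for Entpd1 I730030J21Rik (0.95). The 12 values come from 2 libraries and 6 classes of unequal depth, so they are not independent, and these correlations are a description.

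The antibody binds a ligand of SMAD signalling, so the 250 bases before the start sites of the receptors were searched for CAGACA, a sequence that holds the short SMAD-binding motif, on both strands. RefSeq promoters of GRCm38.p6 matched 9 of the 10 receptors, with 11 windows, and Lag3 had no entry. The motif was in 2 of the 11 windows, those of Havcr2 and Pdcd1, which are shown because they are the ones that hold it, and in 17.1% of all 32851 windows of the same length. The Havcr2 window is chr11:46454681-46454930 on the plus strand and the Pdcd1 window is chr1:94052554-94052803 on the minus strand. Both run 5′ to 3′, with the motif in capitals, and they are a description of the sequence and not of binding.
Havcr2: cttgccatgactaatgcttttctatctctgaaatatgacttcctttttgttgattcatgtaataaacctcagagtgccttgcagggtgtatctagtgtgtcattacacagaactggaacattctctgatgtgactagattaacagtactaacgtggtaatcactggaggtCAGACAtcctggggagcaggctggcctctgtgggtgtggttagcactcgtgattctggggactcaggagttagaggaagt
Pdcd1: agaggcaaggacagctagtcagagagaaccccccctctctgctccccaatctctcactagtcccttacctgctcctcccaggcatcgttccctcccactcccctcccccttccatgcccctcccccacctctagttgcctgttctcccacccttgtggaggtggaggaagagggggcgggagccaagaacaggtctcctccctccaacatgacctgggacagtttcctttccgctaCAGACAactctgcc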

How the data were processed

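The values deposited by the authors are raw counts of UMIs, 1 for each gene and droplet, and neither cell filtering nor normalization was applied to them. The file headers name Cell Ranger version 4, while the submitters' processing notes name Cell Ranger 7.0.1 and mm10. The labels and the study's methods also name different chemistries, and this was not settled. Libraries held 98174850 (control IgG) and 74117462 (antibody) UMIs. Free RNA was profiled in barcodes with under 100 UMIs. Its part in each class was estimated from tracers, namely haemoglobin genes, Lyz2, S100a8, S100a9, Col1a1 and Col3a1. The T and NK gates described below cap the collagen genes, so the estimates and subtractions for those classes may be too low.

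Following the limits in the study's methods, a cell needed 1000 to 8500 genes, between 1000 and 100000 UMIs and no more than 10% of UMIs from mitochondria. T cells had at least 2 UMIs of Cd3d, Cd3e and Cd3g, and NK cells at least 2 of Ncr1 and Klrb1c with at most 1 of Cd3. Both had at most 1 UMI each of B (Cd79a, Ms4a1), macrophage (C1qa, C1qb, Csf1r) and fibroblast (Col1a1, Col3a1) markers. T cells were then taken in order as dividing (Mki67 and Top2a at least 2), regulatory (Foxp3), gamma delta (Trdc), CD8 (Cd8a, Cd8b1) and CD4 (Cd4), and 866 and 702 T cells stayed without a class. Other classes were gated on markers from the cells left, and those of macrophages, fibroblasts and cancer cells are rebuilt names. No doublet caller was run. The gates leave out cells with over 1 UMI of B, macrophage or fibroblast markers but do not screen for other myeloid or dendritic markers. Cells with over 5 myeloid UMIs and cells with most UMIs were left out as alternatives, the first added after the data were seen.

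UMIs were summed per class and library as CPM with exact Poisson intervals, log2 ratios were given with conditional binomial intervals, and shares with Clopper-Pearson intervals after thinning to 2000 UMIs (seed 7). Genes with at least 20 UMIs over both libraries of a class were compared at 2-fold and 1.5-fold. Positions came from GENCODE M21 (GRCm38), which matched 99.6% of identifiers. Scaling factors from edgeR 4.0.16 and DESeq2 1.42.0 (R 4.3.3) were alternatives, without their tests. Python 3.11.15, numpy 2.4.6, scipy 1.17.1 and pandas 2.3.3 were used. The calculations were tested on simulated data. The named genes are all 10 receptors and the lists of regulators, partners, related receptors, ligands and stress genes, with the genes most like each receptor. The receptors and lists were chosen with earlier results of these data known.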

Additional observations from a re-analysis of the deposited data

Results flagged for a closer look

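Ctla4 differed in direction between classes. Its log2 ratio was 0.23 in CD8 cells, 0.13 in CD4 cells and 0.29 in dividing cells, each with a counting interval above 0, and -0.76 in regulatory cells, with an interval below 0. The difference between the classes was not tested, and the regulatory class held 33 and 18 cells. Cd244a had a log2 ratio of 1.91 in gamma delta cells, from 7 and 16 UMIs, and -0.24 in CD8 cells, and this difference was not tested either. The summed NK markers of gamma delta cells were 560 CPM with control IgG and 1139 CPM with the antibody.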

How the results depend on the processing

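No paired analysis was possible because there was a single library for each group, and no replicate could be left out for the same reason. Over 49 receptor and class values and 577 alternative values, 572 stayed within the counting interval of the reported log2 ratio, 540 kept its sign, 5 moved outside the interval and none of the values past 2-fold changed sign. Some of the 572 could not move. The stricter lineage markers left CD4, dividing and NK cells unchanged, and returning dividing cells to their lineage left NK cells unchanged. With 2 UMIs of a lineage marker required, which left 24 and 11 regulatory cells, Tigit moved to -1.36 and Lag3 to -1.67 in regulatory cells and Pdcd1 to -1.28 in gamma delta cells. With cells weighted equally Ctla4 in CD8 cells was 0.32. Lag3 in CD8 cells ranged from 0.55 to 0.69, Pdcd1 in CD8 cells from 0.21 to 0.31, Havcr2 in CD8 cells from -0.32 to -0.10, Ctla4 in regulatory cells from -0.94 to -0.46 and Klrc1 in NK cells from -0.43 to -0.06. Lag3 in NK cells was 0.14 with 1 NK marker UMI required and no Cd3 UMI allowed. Leaving out cells with over 5 myeloid UMIs, added after the data were seen, gave 0.59 for Lag3 in CD8 cells and -0.65 for Ctla4 in regulatory cells. The causes were not tested.

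The number of receptors past 2-fold was 1 in CD4 cells with cells weighted equally or free RNA subtracted, against 0. In regulatory cells it was 0, against 1, with at most 5% mitochondrial UMIs, looser gates, no UMI of excluded lineages, dividing cells returned, the top 5% of cells left out, myeloid cells left out, free RNA subtracted or at least 50 UMIs. In gamma delta cells, against 1, it was 2 with looser gates, 0 with dividing cells returned, with the top 5% left out or with at least 50 UMIs, and 3 with at least 10 UMIs. In NK cells, against 1, it was 2 with at most 5% mitochondrial UMIs or at least 10 UMIs, and 0 with free RNA subtracted. At 1.5-fold, for which the shares of all genes are given above, it was 1 in CD8, 3 in CD4, 2 in regulatory, 1 in dividing, 2 in gamma delta and 2 in NK cells. For the other settings the share of all genes past 2-fold was not calculated, so their counts are not read as a result about the receptors.

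Shares of CD8 cells with a UMI depend on depth. Without thinning they were 29.0% and 36.6% for Lag3, 44.7% and 48.3% for Pdcd1 and 20.3% and 18.6% for Havcr2 (control IgG, then antibody), and at 1000 UMIs they were 8.17% and 11.9%, 17.8% and 19.2%, and 5.89% and 6.17%. At 2000 UMIs Pdcd1 had 26.6% and 32.0%.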
